A study of Homo sapiens with 4 samples.

Results

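The HOX genes encode homeodomain transcription factors that lie in 4 clusters in the human genome. Members were taken as all genes whose only symbol in the platform annotation was HOXA, HOXB, HOXC or HOXD followed by a number, and 27 of the 39 human HOX genes met this, among 18417 genes measured in all. They were HOXA2 on chromosome 7, 10 HOXB genes on chromosome 17, 7 HOXC genes on chromosome 12 and 9 HOXD genes on chromosome 2. HOXC4 and HOXC6 shared 1 feature with both symbols and were not analysed here, nor were the 10 other HOXA genes. The study measured total RNA of HCE cells, which the labels list as an undifferentiated cell line in a series on the corneal epithelium, on 4 whole-transcript arrays. The siKLF7 group (2 arrays) was transfected with an siRNA pool against KLF7, a zinc finger transcription factor, and the scramble control group (2 arrays) with a non-targeting pool. Both groups started from 100000 cells a well, received 20 nM of their pool and were harvested 48 hours later. Separate cultures are not stated for the arrays of a group, so every p-value below reflects how far these particular arrays spread, and that spread may be technical. In bulk RNA, fewer cells of a type and less RNA per cell cannot be told apart.

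HOX genes are known for setting position along the body axis: genes near the 3′ end of a cluster act in the hindbrain and neck, and genes near the 5′ end in the trunk, limbs and tail end. The combination of HOX genes a cell keeps active is often called its HOX code, and cultured skin cells from different sites are known to keep different codes. The front of the head, from which the corneal surface arises, forms in front of the HOX-expressing part of the embryo. HOX proteins bind DNA together with cofactors of the PBX and MEIS families, Polycomb and Trithorax proteins hold the clusters silent or active, and retinoic acid is a classical inducer of their 3′ genes.

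KLF proteins bind GC-rich and CACCC-type sequences, and promoters in RefSeq (build GRCh38.p14, 250 bases before to 50 after each start) were on hand for 11 of the 27 members. CACCC, read on both strands, was found in 6 of these 11 and in 59.9% of all 35116 promoters. CCGCCC, read on both strands, was found in 5 of 11 and in 45% of all promoters. A match is a description of these letters and not a measured site. The 250 bases before the start are shown for the 2 of these 11 genes with the lowest and the highest difference between siKLF7 and scramble control arrays, HOXD10 (log2 -0.29) and HOXD13 (log2 0.06), with both motifs on either strand in capitals. The HOXD10 stretch (chr2:176116528-176116777, plus strand) held 0 copies of CACCC and 1 of CCGCCC. The HOXD13 stretch (chr2:176092471-176092720, plus strand) held 2 of each.
HOXD10: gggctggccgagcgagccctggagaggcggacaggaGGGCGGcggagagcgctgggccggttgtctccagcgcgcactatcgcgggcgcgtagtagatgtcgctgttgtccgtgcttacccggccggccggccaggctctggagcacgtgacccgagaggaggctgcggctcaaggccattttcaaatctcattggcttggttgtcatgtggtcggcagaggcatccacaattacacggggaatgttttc
HOXD13: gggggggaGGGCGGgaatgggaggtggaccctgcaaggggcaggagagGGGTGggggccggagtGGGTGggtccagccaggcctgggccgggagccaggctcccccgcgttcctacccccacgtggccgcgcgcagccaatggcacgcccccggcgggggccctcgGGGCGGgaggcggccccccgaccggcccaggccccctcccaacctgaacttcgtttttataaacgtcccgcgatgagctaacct

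The clusters also hold miRNA genes, and of the miR-196 and miR-10 families MIR196A1, MIR196A2, MIR10A and MIR10B were measured. MIR196B was not. The mature sequences are shown because miR-196 is known to bind the HOXB8 transcript, with the seed (bases 2 to 8) in capitals. The miR-196a sequence is made from MIR196A1 in the HOXB cluster and from MIR196A2 in the HOXC cluster, and miR-10a from MIR10A in the HOXB cluster. The 2 sequences do not share a seed.
hsa-miR-196a-5p: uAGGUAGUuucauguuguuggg
hsa-miR-10a-5p: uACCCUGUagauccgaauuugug

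Levels are given as log2(signal + 16). The level of a feature depends on its own probes, so levels are compared between arrays and not between genes. The targeted gene stood at 10.56 and 10.15 in the siKLF7 arrays, against 12.19 and 11.52 in scramble control replicates 1 and 2. The KLF7 difference was -1.50 on the log2 scale (SE 0.28), which limma did not call with 4 arrays (adjusted p = 0.64), and KLF7 fell by 1.16 (SE 0.13, limma adjusted p = 1.2e-09) against scramble control replicate 2 alone. Scramble control replicate 1 stood apart: over all genes its Pearson's r with each other array was 0.934 to 0.938, against 0.990 to 0.994 among the other 3. It was at least 2-fold from their mean for 940 genes, and 7 of 15 measured corneal epithelium markers were at least 2-fold lower there. Results that rest on it are therefore given with and without it.

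HOX levels were much alike on all 4 arrays, and no member differed 2-fold between any pair of arrays. The members spanned 5.50 to 9.65 in siKLF7 replicate 1 and 5.40 to 9.99 in siKLF7 replicate 2, against 5.67 to 10.02 in scramble control replicate 1 and 5.68 to 10.13 in scramble control replicate 2. Their medians were 7.73 and 7.90 in siKLF7 arrays and 7.75 and 7.89 in scramble control arrays. The table carries no detection call, so each array's 95th percentile of 341 olfactory receptor genes, which are mostly silent outside the nose, served as a yardstick (7.41, 7.53, 7.50 and 7.54 in the same order). Above it lay 15 and 14 members in siKLF7 arrays and 16 and 15 members in scramble control arrays, and 14 members did so on all 4 arrays. Because probes differ in brightness, this count compares arrays with each other and does not show which HOX genes were expressed. The other 11 members stayed below it on every array, at 5.40 to 7.31.

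Among the genes of the 3′ end, which act in the hindbrain and neck, 6 lay above the yardstick on all arrays. HOXB1, needed for the facial nerve, stood at 7.96 and 8.17 in siKLF7 arrays, against 8.14 and 8.26 in scramble control arrays. HOXB3 stood at 9.02 and 9.25 in siKLF7 arrays, against 9.11 and 9.32 in scramble control arrays. HOXB4, known for expanding blood stem cells, stood at 8.40 and 8.30 in siKLF7 arrays, against 8.03 and 8.49 in scramble control arrays. The groups overlapped for all of these, and for HOXB4 the low array was scramble control replicate 1. HOXD1 stood at 8.27 and 8.23 in siKLF7 arrays, against 8.20 and 8.55 in scramble control arrays. HOXD3 stood at 8.30 and 8.47 in siKLF7 arrays, against 8.65 and 8.17 in scramble control arrays. HOXD4 stood at 7.75 and 7.90 in siKLF7 arrays, against 7.75 and 7.89 in scramble control arrays. The control arrays bracketed the siKLF7 arrays for HOXD1 and HOXD3, and HOXD4 was nearly level. In RefSeq HOXD3 overlaps HOXD4 and HOXB3 overlaps HOXB4, and whether their features separate these transcripts was not tested. HOXA2, which gives a pharyngeal arch of the embryo its identity, and HOXB2 were below the yardstick on all arrays and were named after their values were seen. HOXA2 stood at 6.37 and 6.15 in siKLF7 arrays, against 6.10 and 6.33 in scramble control arrays.

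Of the middle genes, which act in the trunk, 3 lay above the yardstick on all arrays and HOXB5 on 1 array. HOXB7 stood at 8.10 and 8.09 in siKLF7 arrays, against 8.05 and 8.21 in scramble control arrays. HOXB8 stood at 9.18 and 9.73 in siKLF7 arrays, against 9.87 and 9.56 in scramble control arrays. HOXD8 stood at 7.73 and 7.91 in siKLF7 arrays, against 7.87 and 7.84 in scramble control arrays. HOXB8 differed by 0.55 between the siKLF7 arrays, more than any other member did, and siKLF7 replicate 1 was its lowest array. HOXB5 stood at 7.16 and 7.03 in siKLF7 arrays, against 7.61 and 7.35 in scramble control arrays. HOXC8, below the yardstick throughout and named after its values were seen, stood at 6.45 and 6.53 in siKLF7 arrays, against 6.99 and 6.71 in scramble control arrays. For HOXB5 and HOXC8 both siKLF7 arrays lay below both controls, with scramble control replicate 1 the highest. Both siKLF7 arrays lay below both controls for 28.9% of all genes.

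Of the 5′ genes, which act in the limbs and the tail end of the body, 5 lay above the yardstick on all arrays and HOXD11 on 3. HOXC13, a regulator of hair keratins whose loss leaves hair and nails malformed, stood at 8.34 and 8.37 in siKLF7 arrays, against 8.86 and 8.66 in scramble control arrays. HOXC12 stood at 9.62 and 9.99 in siKLF7 arrays, against 10.02 and 10.13 in scramble control arrays. HOXD9 stood at 9.65 and 9.62 in siKLF7 arrays, against 9.90 and 9.83 in scramble control arrays. These genes did not overlap between the groups and were lower in siKLF7 arrays, as were 28.9% of all genes. HOXB13, a gene of the prostate and hindgut, stood at 7.87 and 8.15 in siKLF7 arrays, against 8.10 and 8.08 in scramble control arrays. HOXD11, which shapes the forelimb, stood at 7.69 and 7.49 in siKLF7 arrays, against 7.58 and 7.96 in scramble control arrays. HOXD13, a gene of digit formation, stood at 8.52 and 8.63 in siKLF7 arrays, against 8.38 and 8.65 in scramble control arrays. The groups overlapped for HOXB13, HOXD11 and HOXD13.

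**Figure D1:**
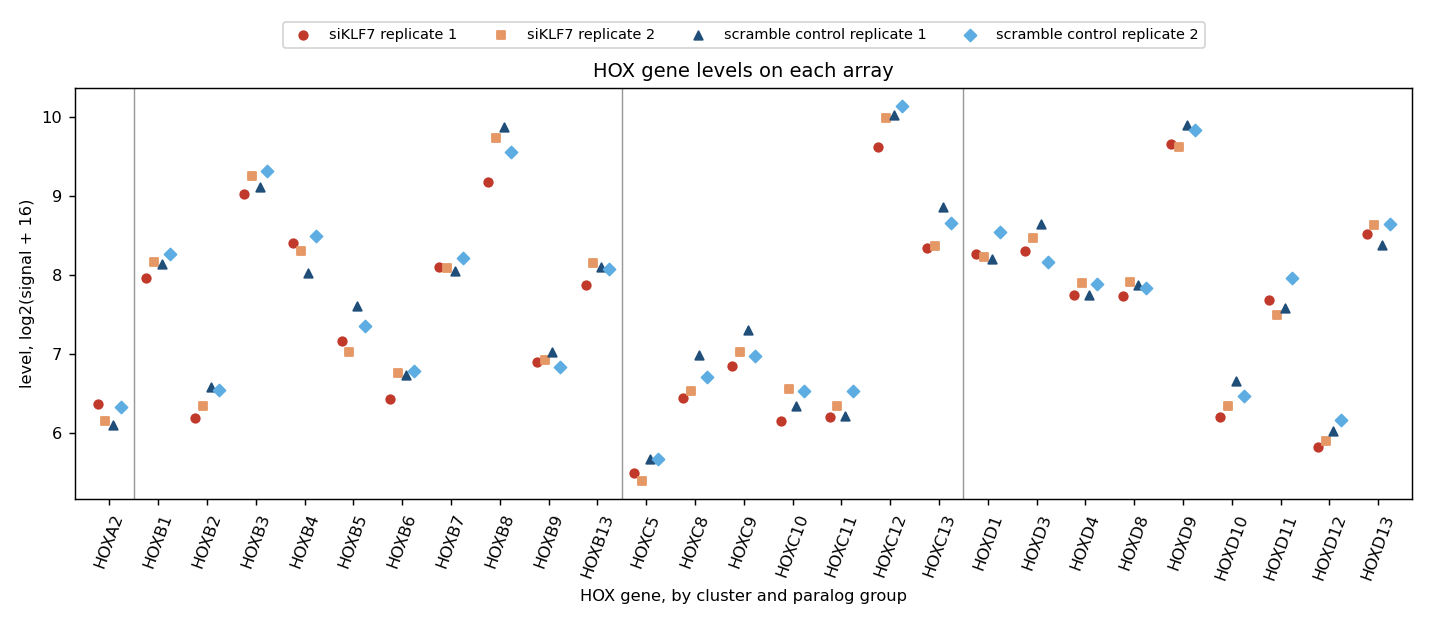
Level of each of the 27 HOX genes, as log2(signal + 16) on the vertical axis, with a point for each array and genes ordered by cluster and paralog group. The 4 points of a gene lie close together, and the widest gap between 2 arrays is 0.69, for HOXB8.

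The HOX code of scramble control replicate 1 was set beside that of the other 3 arrays, as a check of whether that array held cells of another position. No member was at least 2-fold away (0 of 27), where 5.1% of all genes were (551 lower, or 2.99%, and 389 higher, or 2.11%), and no member was at least 1.5-fold away, where 13.2% of all genes were. HOXC8 and HOXB5 were higher in scramble control replicate 1 than the mean of the other arrays by 0.42 each, HOXC13 by 0.40 and HOXB8 by 0.38. HOXB4 had the lowest difference, -0.36, and HOXD13 followed at -0.22. The median size of the difference was 0.14 over the members and 0.20 over all genes. Scramble control replicate 1 lay above all other arrays for 10 members (38.3% of all genes), below them for 6 (31.4% of all genes) and within their range for 11. This is 1 array set against 3 arrays of both groups, chosen because it stood apart, so no test was made. For the 11 members below the yardstick on every array, a dim level cannot be told from background, so the check says little about them. Lying above the yardstick does not show expression either, so the check is also limited for the other members. Whether their signals exceed probe background was not tested. Those 11 differed by -0.18 to 0.42.

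The order of the members was also much alike. Across the 27 genes, Pearson's r between scramble control replicate 1 and each other array was 0.977 to 0.983 and Spearman's rho 0.972 to 0.982. Among the other 3 arrays r was 0.989 to 0.992 and rho 0.977 to 0.980. These are correlations across genes on shared probes, whose brightness differs in the same way on every array, and they describe the arrays only. Between scramble control replicates 1 and 2 the median size of a difference was 0.19 over the members and 0.20 over all genes. Between the siKLF7 arrays it was 0.15 over the members and 0.12 over all genes. HOXD3 was the member furthest apart between the controls, at 0.49. By cluster, the median difference of scramble control replicate 1 from the other arrays was 0.07 over HOXB, 0.14 over HOXC and 0.04 over HOXD, and -0.18 for HOXA2.

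**Figure D2:**
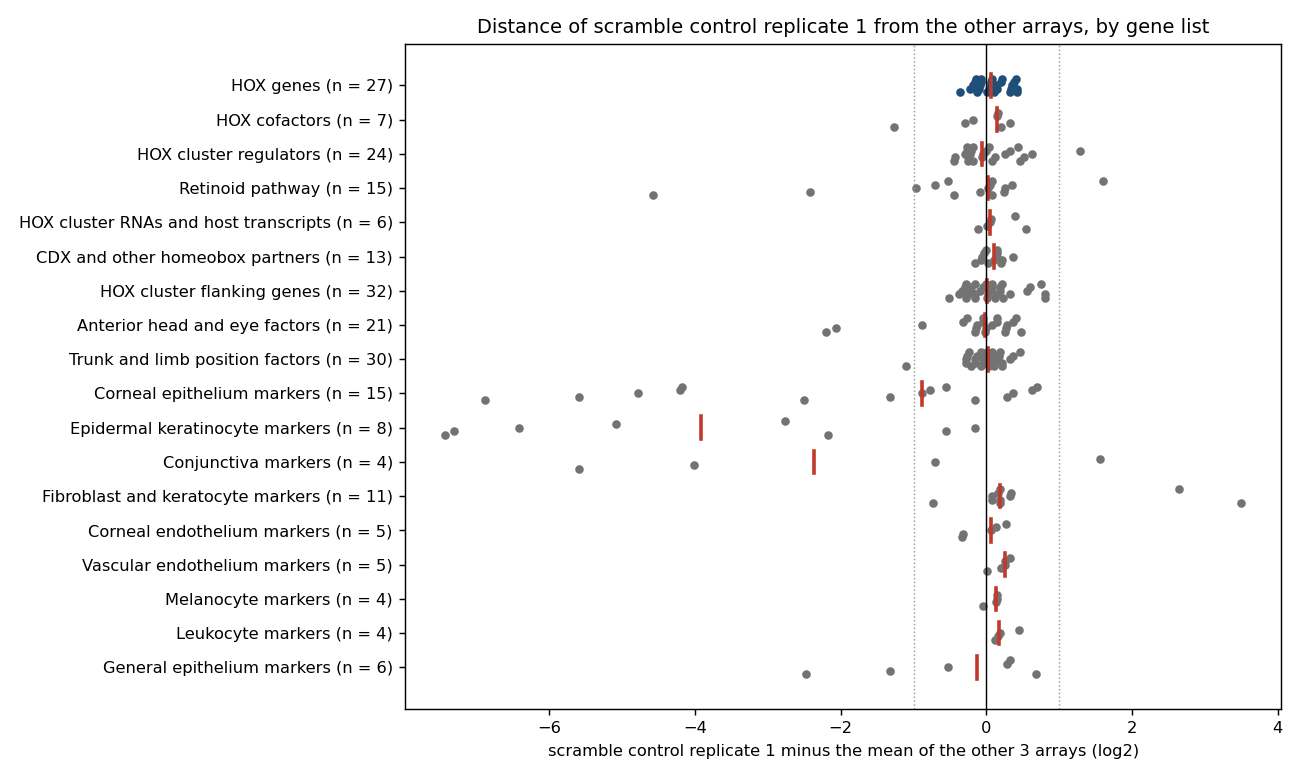
Scramble control replicate 1 minus the mean of the other 3 arrays (log2, horizontal axis), with a point per gene, a red bar at each list's median and dotted lines at a 2-fold difference. The HOX genes lie between -0.36 and 0.42, while corneal epithelium markers reach -6.89 and fibroblast markers 3.50.

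No HOX gene passed the test between siKLF7 and scramble control arrays. With limma over all 18417 genes and 4 arrays, 0 of 27 members passed an adjusted p of 0.05, and 0% of all genes did. At an unadjusted p under 0.05 there were 4 members, against 5.8% of all genes. These 4 were HOXC13 (log2 -0.41, SE 0.14), HOXB5 (-0.38, SE 0.14), HOXC8 (-0.36, SE 0.14) and HOXB2 (-0.30, SE 0.11), and limma's adjusted p was 0.64 for each. HOXC13 averaged 8.35 ± 0.02 in siKLF7 arrays and 8.76 ± 0.14 in scramble control arrays (SD, n = 2 each). HOXB5 averaged 7.10 ± 0.09 in siKLF7 arrays and 7.48 ± 0.18 in scramble control arrays (SD, n = 2 each). The 95% intervals of all 27 differences lay between -0.90 and 0.60 with 4 arrays, short of a 2-fold difference in signal under the fit's assumptions. For the 11 members below the yardstick on every array, a change in RNA may not show in the signal. The same may hold for members above it, as the yardstick does not show which genes were expressed. The intervals therefore do not exclude a 2-fold change in RNA for any member. An exact permutation test of 2 arrays against 2 cannot give a p below 0.333.

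The small differences that were seen ran mostly downward. With 4 arrays 23 of 27 members had a log2 difference below 0, where 58.2% of all genes did, and the median was -0.14 over the members and -0.05 over all genes. The siKLF7 arrays differed in this: against the mean of the controls the member median was -0.21 in siKLF7 replicate 1 and -0.04 in siKLF7 replicate 2. Both siKLF7 arrays lay below both controls for 9 members, where 28.9% of all genes did, and above both for 0, where 16.3% of all genes did. The 9 were HOXB2, HOXB5, HOXC5, HOXC8, HOXC12, HOXC13, HOXD9, HOXD10 and HOXD12. With quantile normalization 8 members lay below both controls, where 24.3% of all genes did. The members' share of 9 in 27 was close to that of all genes. A low median was not particular to the HOX genes. With 4 arrays it was also -0.14 over 13 CDX and other homeobox partners and -0.12 over 30 trunk and limb factors. Over 32 genes that flank the clusters it was 0.03.

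The 2 controls gave different calls. Against scramble control replicate 2 alone, 0 of 27 members passed limma, where 1.57% of all genes did (163 higher, or 0.885%, and 127 lower, or 0.69%, and 276 higher and 143 lower with median centring). At an unadjusted p under 0.05 there were 2 members, against 11.3% of all genes. They were HOXD11 (log2 -0.37, SE 0.16, limma adjusted p = 0.34) and HOXC12 (-0.32, SE 0.15, limma adjusted p = 0.41). The difference was below 0 for 25 of 27 members, where it was for 57.8% of all genes. The 95% intervals of the 27 differences lay between -0.69 and 0.54. HOXC13 stood at -0.31 (SE 0.16) in this fit, HOXB5 at -0.25 (SE 0.16) and HOXB8 at -0.11 (SE 0.17).

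Against scramble control replicate 1 alone, 4 of 27 members fell and 0 rose, where 13.4% of all genes fell and 13.4% rose. The share of members called, 4 of 27, was below the 26.8% of all genes called in that fit. At an unadjusted p under 0.05 there were 6 members, against 36.2% of all genes, and 17 of 27 members were below 0, where 56.9% of all genes were. HOXB5 fell by 0.51 (SE 0.16, limma adjusted p = 0.011) and HOXC13 fell by 0.50 (SE 0.16, limma adjusted p = 0.013). HOXC8 fell by 0.50 (SE 0.16, limma adjusted p = 0.014) and HOXB8 fell by 0.41 (SE 0.16, limma adjusted p = 0.049), a call lost with a pseudocount of 1 (adjusted p = 0.055). HOXB4, the highest, stood at 0.32 (SE 0.16) and did not pass. Both 3-array fits share the siKLF7 arrays and assume that a lone control varies as the siKLF7 pair did. The same 4 genes are those in which scramble control replicate 1 lay furthest above the mean of the other 3 arrays. As 2 of those 3 arrays are the siKLF7 arrays, this largely restates the same difference. Against scramble control replicate 2 the 4 genes stood at -0.25 (HOXB5), -0.31 (HOXC13), -0.22 (HOXC8) and -0.11 (HOXB8).

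**Figure D3:**
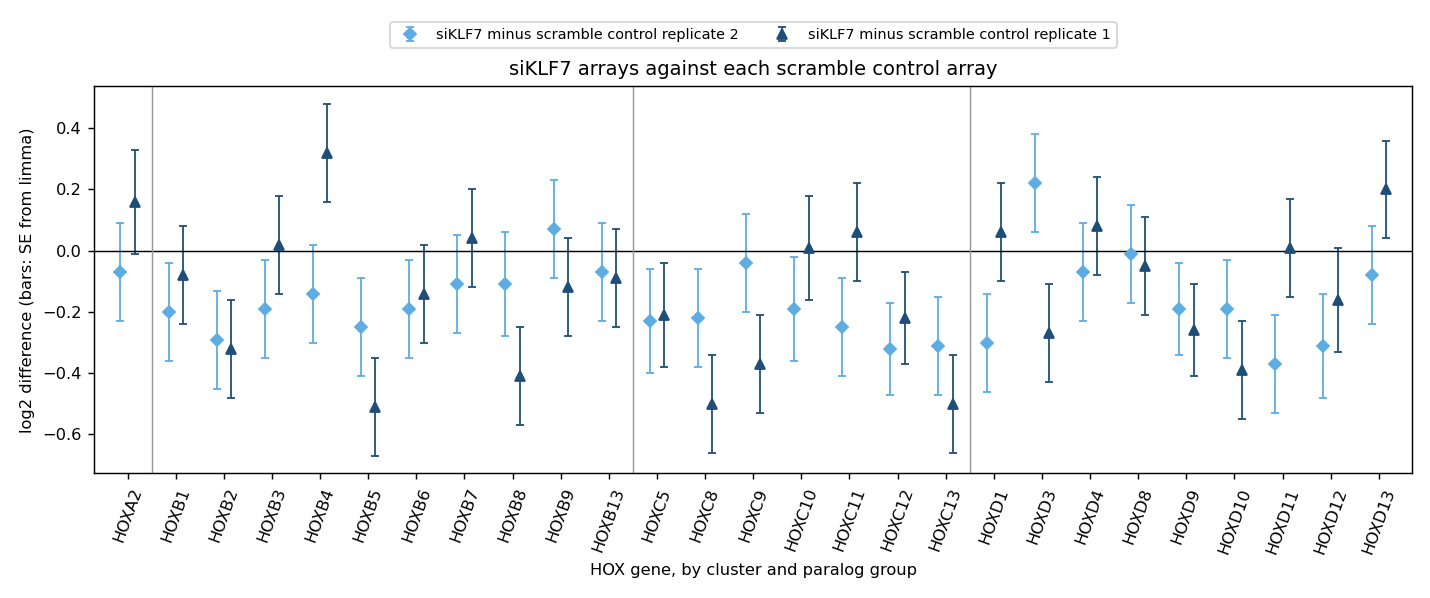
Mean of the 2 siKLF7 arrays minus each scramble control array (log2, vertical axis) for the 27 HOX genes, with limma's SE as bars, diamonds for scramble control replicate 2 and triangles for scramble control replicate 1. The differences lie between -0.51 and 0.32, and the 4 that passed are triangles for HOXB5, HOXB8, HOXC8 and HOXC13.

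Of 6 cluster RNAs measured, 5 were below the yardstick on every array and HOXB-AS3 was above it on 1. None (0 of 6) were at least 2-fold away in scramble control replicate 1 and 0 passed limma against scramble control replicate 2. The feature of MIR196A2, a source of miR-196a, stood at 5.91 and 5.75 in siKLF7 arrays, against 6.45 and 6.05 in scramble control arrays. It fell only against scramble control replicate 1 among the fits run (log2 -0.62, limma adjusted p = 0.0022, and -0.22 against scramble control replicate 2). HOXB-AS3, antisense to HOXB5 and HOXB6, stood at 7.26 and 7.26 in siKLF7 arrays, against 7.42 and 7.57 in scramble control arrays. The MIR10B feature had signals of 0.6 and 0 in siKLF7 arrays, against 0.1 and 3.5 in scramble control arrays, next to nothing on any array. Of 13 CDX, EVX, GBX and other homeobox genes related to the clusters, 0 were at least 2-fold away in scramble control replicate 1, with differences of -0.16 to 0.37, and 0 passed against scramble control replicate 2. Against scramble control replicate 1 the 13 had a median difference of -0.12, where all genes had -0.05, and GBX1 was the lowest at -0.47. GBX1 was at 6.60 and 6.53 in siKLF7 arrays, against 7.03 and 6.86 in scramble control arrays.

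Of 32 measured genes that flank the clusters, 0 were at least 2-fold away in scramble control replicate 1, and the range was -0.51 to 0.81. Against that array 5 of 32 rose and 5 fell in limma, where 13.4% of all genes rose and 13.4% fell. The flanking genes given here were named after their values were seen. SKAP2 and SNX10, on the same chromosome as the HOXA cluster, were higher there by 0.80 and 0.75. MTX2, a mitochondrial outer membrane gene beside the HOXD cluster, stood at 9.18 and 10.31 in siKLF7 arrays, against 10.37 and 9.19 in scramble control arrays, so the arrays of each group differed. ATP5MC1, a subunit gene of ATP synthase near the HOXB cluster, stood at -0.33 (SE 0.08) against scramble control replicate 2. The median over the 32 genes was 0.04 there.

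The 7 HOX cofactors had a median difference of -0.13 against scramble control replicate 2 and -0.19 against scramble control replicate 1. All genes had -0.04 and -0.05. MEIS1, a partner that binds DNA with HOX and PBX proteins, stood at 10.01 and 9.75 in siKLF7 arrays, against 8.42 and 9.34 in scramble control arrays. MEIS1 was higher in both siKLF7 arrays than in both controls, as were 16.3% of all genes. It rose against scramble control replicate 1 (log2 1.45, limma adjusted p = 9.8e-13), stood at 0.54 (SE 0.15) against scramble control replicate 2, where it just missed (limma adjusted p = 0.052), and at 1.00 (SE 0.34, limma adjusted p = 0.64) with 4 arrays. In scramble control replicate 1 it was 1.27 below the mean of the other arrays, the 1 of 7 cofactors at least 2-fold away. PBX3, another partner, stood at 10.29 and 10.33 in siKLF7 arrays, against 10.57 and 10.11 in scramble control arrays.

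The 24 measured regulators of the HOX clusters, most of them Polycomb or Trithorax genes, had a median difference of -0.01 against scramble control replicate 2. Against scramble control replicate 1, 5 of 24 fell and 0 rose, where 26.8% of all genes were called, and the 5 were KDM6A, PHC1, PHC2, WDR5 and KMT2A. KDM6A, a demethylase that removes the Polycomb mark, was higher in scramble control replicate 1 than the mean of the other arrays by 1.28, the 1 of 24 at least 2-fold away. PHC1, a Polycomb subunit, WDR5, a subunit of Trithorax complexes, and KMT2A, the Trithorax methyltransferase known for holding HOX genes active in leukaemia, were higher by 0.62, 0.51 and 0.46. Other regulators, named after their values were seen, were lower there: EZH1 (-0.44), CTCF (-0.43), EZH2 (-0.27), EED (-0.25) and SUZ12 (-0.21). The list median was -0.05.

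Of 15 measured retinoid pathway genes, 2 were at least 2-fold lower in scramble control replicate 1 and 1 was higher, while the median difference over the list was 0.02. Against that array 6 of 15 rose and 2 fell in limma, where 26.8% of all genes were called. CRABP2, which carries retinoic acid to the nucleus, stood at 10.81 and 10.51 in siKLF7 arrays, against 6.05 and 10.57 in scramble control arrays. ALDH1A1, an enzyme that makes retinoic acid, stood at 8.82 and 8.95 in siKLF7 arrays, against 6.28 and 8.32 in scramble control arrays. ALDH1A3, another such enzyme, stood at 8.93 and 8.72 in siKLF7 arrays, against 10.56 and 9.21 in scramble control arrays. So the outlying value was scramble control replicate 1 for all of these, low for CRABP2 and ALDH1A1 and high for ALDH1A3. RARG, a retinoic acid receptor, stood at 9.27 and 9.44 in siKLF7 arrays, against 8.46 and 9.57 in scramble control arrays. Against scramble control replicate 2, 0 of 15 passed limma, with ALDH1A1 at 0.57 (SE 0.16, adjusted p = 0.051).

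Other factors that mark position were set beside the HOX genes. Of 21 anterior head and eye factors, 2 were at least 2-fold lower in scramble control replicate 1. The list had a median difference of -0.13 against scramble control replicate 2 and -0.04 against scramble control replicate 1, where all genes had -0.04 and -0.05. DLX3 stood at 9.12 and 8.79 in siKLF7 arrays, against 6.71 and 8.83 in scramble control arrays, and DLX5 stood at 7.92 and 7.38 in siKLF7 arrays, against 5.65 and 7.81 in scramble control arrays. Both are homeobox genes of the face and of ectoderm, and scramble control replicate 1 was their low array. PAX6, the eye master regulator, stood at 11.31 and 11.37 in siKLF7 arrays, against 10.37 and 11.07 in scramble control arrays, above the yardstick on every array. Of 30 trunk and limb factors, only PAX9, a gene of the pharynx and teeth, was at least 2-fold away in scramble control replicate 1, lower by 1.11. These 30 had a median difference of -0.14 against scramble control replicate 2 and -0.07 against scramble control replicate 1.

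Markers of cell type give the setting for these levels. The basal keratin KRT5, named after its values were seen, was at 13.69 and 13.73 in siKLF7 arrays, against 13.53 and 13.64 in scramble control arrays. The cornea keratin KRT12 was at 11.26 and 11.62 in siKLF7 arrays, against 6.39 and 10.63 in scramble control arrays. KRT3, its partner keratin, had signals of 1873.1 and 2460.8 in siKLF7 arrays, against 0 and 1440.4 in scramble control arrays. In scramble control replicate 1 KRT5 was thus close to the other arrays, while KRT12 was low and KRT3 was listed at 0. KRT14, also named after its values were seen, and KRT15, both keratins of the same list, were lower there. They stood at -0.56 and -2.50 from the mean of the other arrays. Other corneal epithelium markers were higher there, ITGA6 by 0.70, KRT19 by 0.36 and, named after their values were seen, ITGB4 by 0.63 and CDH1 by 0.28. Of the 15 measured, 7 were at least 2-fold lower there and 0 at least 2-fold higher. Against scramble control replicate 2, the 15 corneal epithelium markers had a median difference of 0.40, where all genes had -0.04. They ranged from -0.03 (EPCAM) to 0.85 (KRT15), with KRT12 at 0.81. Of 8 epidermal keratinocyte markers 6 were at least 2-fold lower in scramble control replicate 1. Against scramble control replicate 2 the 8 had a median difference of 0.27, from -0.19 (IVL) to 0.94 (KRT10). KRT10, a keratin of differentiating epidermis, stood at 12.43 and 12.54 in siKLF7 arrays, against 4.86 and 11.55 in scramble control arrays. Of 11 fibroblast and keratocyte markers 2 were at least 2-fold higher in scramble control replicate 1, POSTN by 3.50 and THY1 by 2.64, and the other 9 differed by -0.73 (LUM) to 0.34 (DCN), with a list median of 0.18. LUM stood at 0.64 and POSTN at 0.86 against scramble control replicate 2, where the list median was -0.14. Both lay below the yardstick on the arrays of that comparison, where a dim level cannot be told from background. Summed signal over the 11 fibroblast markers was 3055 and 2942 in siKLF7 arrays, against 4449 and 2574 in scramble control arrays. Of 4 conjunctiva markers 2 were at least 2-fold lower and 1 higher in scramble control replicate 1. Of 6 general epithelium markers 2 were at least 2-fold lower there and 0 at least 2-fold higher. KRT8 and KRT18 of that list were higher there by 0.68 and 0.33. The part of these markers in any HOX value was not tested. Of 5 vascular endothelium, 4 melanocyte, 4 leukocyte and 5 corneal endothelium markers, 0 were at least 2-fold away in scramble control replicate 1.

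**Figure D4:**
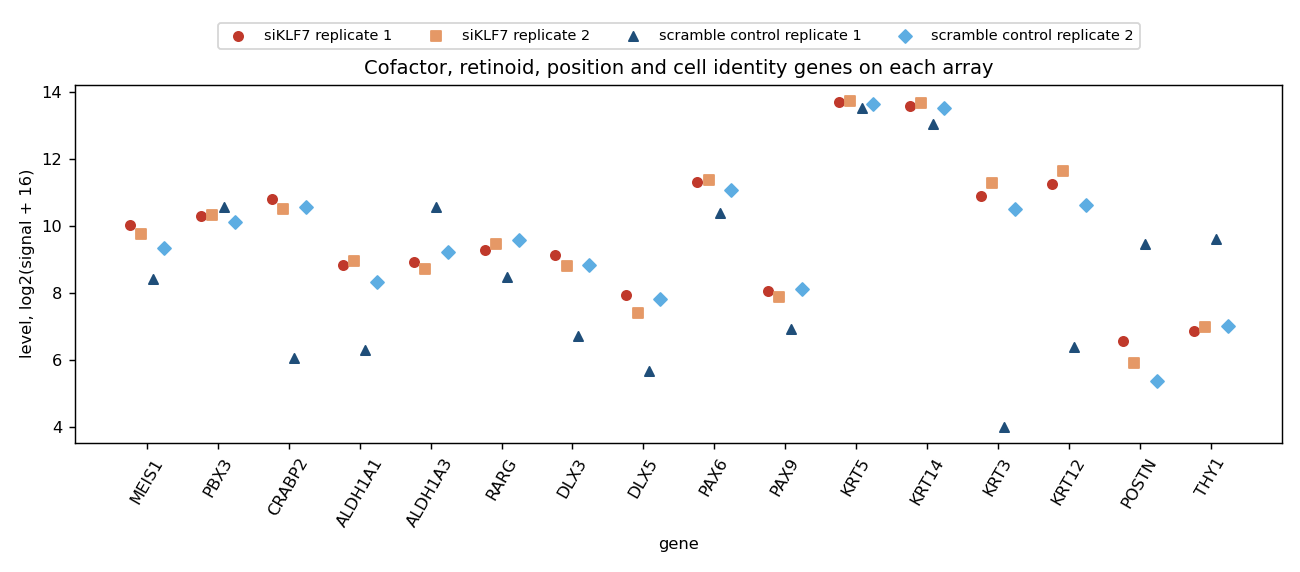
Level of 16 cofactor, retinoid, position and cell identity genes, as log2(signal + 16) on the vertical axis, with a point for each array. Scramble control replicate 1 lies apart from the other arrays for CRABP2 (6.05), KRT12 (6.39) and THY1 (9.59), and close to them for KRT5 (13.53).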

How the data were processed

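Total RNA of 4 samples was measured on whole-transcript arrays. The authors deposited 1 table of linear intensity values for which Affymetrix Expression Console 1.1.1 and PLIER 2.0 are named, per the submitters' processing notes. No source used here states a normalization between arrays. Median signals were 190 and 185 in siKLF7 arrays and 187 and 194 in scramble control arrays, and the number of arrays limits the precision. Of 33297 features, 19460 had 1 gene symbol in the platform annotation, 1754 had several and 12083 had none. For genes with several features the brightest on average was kept. Values were taken as log2(signal + 16) and tested in limma 3.58.1 (R 4.3.3; lmFit, then eBayes with its prior following intensity), adjusted by Benjamini-Hochberg over all genes. The 4-array fit had 2 residual degrees of freedom, and the fits against 1 control had 1. Members, lists and the naming rule (KLF7, members above the olfactory receptor yardstick on any array, up to 4 genes a list furthest apart in scramble control replicate 1, and list genes passing against scramble control replicate 2) were chosen with earlier results of these data known. The rule did not cover the genes that flank the clusters, and not every list gene that met it is named above. Of 252 entries in 17 other lists, 210 were measured. Alternatives are in the closing section. Figures used matplotlib 3.10.9.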

Additional observations from a re-analysis of the deposited data

How the results depend on the processing

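The count of HOX genes that passed with 4 arrays was 0 with every normalization, pseudocount, filter, prior and threshold tried and with the replicate number as a block (replicate block, 0 genes), and it ranged from 0 to 4 when each array was left out, the 4 coming without scramble control replicate 2. KLF7 ranged from -1.83 to -1.16 on the log2 scale when arrays were left out, and it passed when either control array was left out. Replicate 1 minus replicate 2 in siKLF7 correlated at r = -0.041 across genes with the same difference in scramble control. Scramble control replicate 1 stood apart, so this cannot decide whether same-numbered arrays are pairs. They were not taken as pairs. The HOX median ranged from -0.21 to -0.04 over the arrays left out. Against scramble control replicate 2 the count of HOX genes was 0 under all 10 alternatives, and the count of all genes was 290, 478 with quantile normalization and 172 with no trend in the prior. Against scramble control replicate 1, HOX calls numbered 4, and 2 without the dimmest 50% of genes, where HOXB5 and HOXC8 were no longer tested. HOXB8 lost its call with a pseudocount of 1 (adjusted p = 0.055), the mean of features (adjusted p = 0.065) and no trend in the prior (adjusted p = 0.098). No HOX gene was 2-fold away in scramble control replicate 1 under any of the 5 alternatives run. With the 99th percentile of olfactory receptors as yardstick, 9 and 9 members lay above it in siKLF7 arrays and 7 and 8 in scramble control arrays, and the same counts came with the median of all genes. Without a detection call, a dim HOX level cannot be told from background.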
